A study of Mus musculus with 6 samples.

Results

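RNA of 11 autosomal protein-coding genes reached at least 10 CPM in both libraries of sorted wild-type pre-B cells. It lay below 1 CPM in every Eμ-Myc library, premalignant and malignant alike. The sorted samples also held markers of other cell types, and the part of those cells in these levels was not tested. The 11 genes are Steap4, Ccl5, Scn4b, Adamts7, Mmrn1, Klra1, Vpreb2, Camk1g, Gab1, Dnase1l3 and Pcp4l1. They were chosen by these measured levels in CPM (the share of a gene in all counts on genes of that library, scaled to 1000000), with at least 10 CPM in both wild-type libraries and below 1 CPM in all 4 Eμ-Myc libraries. Of 37991 genes counted, 21377 were autosomal and protein-coding, 8356 of these reached 10 CPM in both wild-type libraries, and the 11 genes are 0.132% of those 8356. Since the rule fixes the contrast with wild type, all values against wild type below are a description with no test.

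Polyadenylated RNA of pre-B cells was sequenced from C57BL/6 bone marrow, with 2 libraries for each of 3 stages. Wild-type mice carried no transgene and were 4 to 6 weeks old, premalignant mice were heterozygous for the Eμ-Myc transgene, which drives Myc in B-lineage cells, and of the same age, and malignant mice carried the same transgene and were taken at 10 to 20 weeks, once lymphoma had appeared. Cells were sorted as B220 high, IgM low and IgD low, while the study's methods describe the malignant cells as B220-positive and negative for IgM and IgD, from female mice for wild type and premalignant and from both sexes for malignant. A malignant sample can be the outgrowth of a clone, the malignant mice were older, and age, clonality and sex cannot be told apart from the malignant stage. The B-lineage label held in all 6 libraries, as Cd79a, a signalling chain of the pre-B and B cell receptors, was at 1233 and 1671 CPM in wild type, 787 and 833 CPM in premalignant and 660.3 and 774 CPM in malignant cells. Markers of NK cells, dendritic cells, neutrophils, monocytes, T cells and erythroid cells were also counted in every library and were lower in the Eμ-Myc libraries, with the values given after the 11 genes. Total counts were 51065861 and 31283803 in wild type, 53453055 and 34543633 in premalignant and 52996457 and 30031100 in malignant cells, so replicate 1 was the deeper library at every stage and 3 counts corresponded to between 0.0561 and 0.0999 CPM.

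Developing B cells pass from pro-B cells, which rearrange their heavy chain genes, to pre-B cells, which display the heavy chain with a surrogate light chain as the pre-B receptor. Signals of that receptor and of interleukin-7 drive proliferation, after which the surrogate light chain genes are shut off and light chain genes are rearranged. The transcription factor Myc promotes growth and division, and in mice with the Eμ-Myc transgene the precursor pool expands before lymphomas arise. The 11 genes do not belong to a single known pathway. Among them Vpreb2 is a surrogate light chain gene, Klra1 and Ccl5 are best known from NK and T cells, and the others encode a metalloreductase, a channel subunit, secreted proteins and signalling proteins.

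Steap4 had the highest level of the 11 in wild type, also per exon length. It encodes a membrane metalloreductase that reduces iron and copper ions, and it lies on chromosome 5, from 7960472 to 7982213 on the plus strand of NCBIM37 (mm9). Its level was 111 and 129 CPM in wild type, 0.861 and 0.579 CPM in premalignant cells and 0.0755 and 0.0999 CPM in malignant cells. The wild-type libraries stood far above the other 4, and both malignant libraries lay below both premalignant libraries. The wild-type mean was 120.1 CPM ± 12.6 (SD, n = 2). With the counts of a stage pooled over its libraries, the wild-type level was 157 times the premalignant level, with an exact 95% interval of 124 to 204, and 1399 times the malignant level, with an interval of 679 to 3481. Ratios of stages for the genes below are of pooled counts as well. All these intervals cover counting error only and leave out the spread between the 2 libraries of a stage. PCR copies were not marked, so even the counting error could be larger.

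The promoter sequences of 8 of the 11 genes were found in RefSeq's promoter table (GRCm38) and located in NCBIM37 by exact match. The stretches below end where the GENCODE vM1 gene begins, and they are shown for Steap4 and Camk1g, which were called lower in malignant vs. premalignant cells in the fit of all 6 libraries, for Vpreb2 as the gene of the pre-B receptor and for Klra1 as the gene of the NK receptor family. Capitals mark letters of the motifs searched on both strands, namely TGGGAA (the core known for Ikaros), GAGGAAG (PU.1 and Spi-B), CAGGTG (E2A), TGTGGT (Runx), CACGTG (the E-box of Myc) and TATAAA (the TATA box), or of their reverse complements. In Vpreb2 the letters of the E2A and PU.1 motifs adjoin. The windows are chr5:7960222-7960471 (plus strand) for Steap4, chr1:195196492-195196726 (minus strand) for Camk1g, chr16:17980408-17980513 (plus strand) for Vpreb2 and chr6:130336893-130337142 (minus strand) for Klra1.
Steap4: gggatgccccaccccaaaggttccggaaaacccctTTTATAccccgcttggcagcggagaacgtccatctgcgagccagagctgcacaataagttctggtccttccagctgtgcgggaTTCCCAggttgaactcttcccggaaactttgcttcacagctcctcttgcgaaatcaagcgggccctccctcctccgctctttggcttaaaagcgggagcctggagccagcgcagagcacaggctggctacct
Camk1g: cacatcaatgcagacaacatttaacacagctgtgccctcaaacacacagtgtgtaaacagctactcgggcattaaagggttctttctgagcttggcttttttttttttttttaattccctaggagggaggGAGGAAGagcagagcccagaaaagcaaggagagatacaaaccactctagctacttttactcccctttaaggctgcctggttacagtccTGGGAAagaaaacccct
Vpreb2: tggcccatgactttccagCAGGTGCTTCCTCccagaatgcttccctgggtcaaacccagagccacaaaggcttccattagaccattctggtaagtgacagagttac
Klra1: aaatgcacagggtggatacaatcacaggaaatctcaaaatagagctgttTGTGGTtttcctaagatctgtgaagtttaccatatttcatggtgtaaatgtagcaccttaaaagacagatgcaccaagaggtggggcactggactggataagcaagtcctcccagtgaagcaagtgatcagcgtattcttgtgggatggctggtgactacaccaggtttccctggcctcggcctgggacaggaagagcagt

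Across the 250 bases before the RefSeq start, TGGGAA occurred in 4 of the 8 windows, those of Camk1g, Mmrn1, Steap4 and Vpreb2, against 21.6% of 32536 mouse windows of that length, and that of Vpreb2 lies past the stretch shown. GAGGAAG occurred in 2, those of Camk1g and Vpreb2, against 10.7%. CAGGTG occurred in Vpreb2 alone against 17.3%, TGTGGT in Klra1 alone against 14.0%, and TATAAA in Steap4 alone against 12.3%, where it lay 215 bases before the start and on the reverse strand. CACGTG occurred in none of the 8, against 6.04% of all windows. CpG dinucleotides numbered 25 in Gab1, 23 in Scn4b and 12 in Steap4 but 5 or fewer in the other 5 windows, and 3 of 8 windows held at least 10, against 38.1% of all windows. The window of Mmrn1 lies inside the vM1 gene, 19341 bases from its annotated start, and the RefSeq starts of Scn4b and Vpreb2 lie 187 and 144 bases inside theirs. Matches of letters describe the windows, and with 8 windows the shares are coarse.

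**Figure D1:**
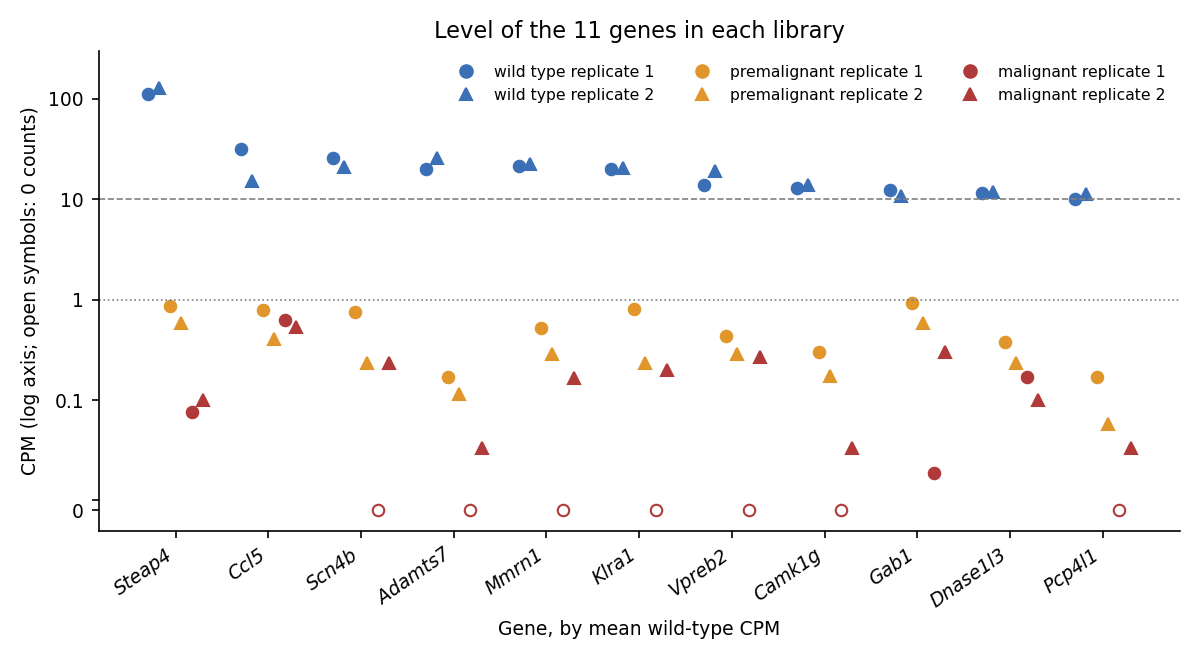
Level of each of the 11 genes in each of the 6 libraries, in CPM on a log axis, with circles for replicate 1, triangles for replicate 2 and open symbols at the bottom for libraries with 0 counts. Dashed and dotted lines mark 10 and 1 CPM, the limits of the rule, and premalignant replicate 1 is the highest Eμ-Myc library for all 11 genes.

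Scn4b and Klra1 encode the other membrane proteins, and Vpreb2 encodes a part of the pre-B receptor. Scn4b, a beta subunit of voltage-gated sodium channels (chromosome 9, 44946520 to 44962235, plus strand), was at 25.5 and 20.7 CPM in wild type, 0.748 and 0.232 CPM in premalignant cells and 0 and 0.233 CPM in malignant cells. Premalignant replicate 1 was here 3.23 times premalignant replicate 2, and the second malignant library was level with the latter. The wild-type level was 43.4 times the premalignant level (32.6 to 59.1) and 281 times the malignant level (136 to 699).

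Klra1 encodes Ly49A, an inhibitory receptor for MHC class I on NK cells (chromosome 6, 130313936 to 130336892, minus strand). Its level was 20.1 and 20.5 CPM in wild type, 0.804 and 0.232 CPM in premalignant cells and 0 and 0.200 CPM in malignant cells. The wild-type libraries differed by less than for any other of the 11 genes except Dnase1l3 as a ratio, whereas the premalignant libraries differed 3.47 times, the widest such ratio among the 11. Of the 50-base stretches of its exons, 7.26% occurred more than once in the genome, so a small share of reads could not be assigned to it with certainty.

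Vpreb2 forms the surrogate light chain together with lambda 5, the product of Igll1 (chromosome 16, 17980514 to 17981366, plus strand). It was at 13.8 and 19.1 CPM in wild type, 0.430 and 0.289 CPM in premalignant cells and 0 and 0.266 CPM in malignant cells. The premalignant libraries and malignant replicate 2 lay close together and malignant replicate 1 had no count, which in a library of that depth allows up to 0.0566 CPM. Because 34.9% of its 50-base exon stretches were repeated elsewhere in the genome, its level is uncertain.

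Of the secreted proteins, Ccl5 is a chemokine that attracts T cells, monocytes and NK cells (chromosome 11, 83339280 to 83344020, minus strand). It was at 31.8 and 15.1 CPM in wild type, 0.786 and 0.405 CPM in premalignant cells and 0.623 and 0.533 CPM in malignant cells. It was the gene whose wild-type libraries differed most, 2.11 times, and its Eμ-Myc libraries overlapped between the stages. Wild type exceeded premalignant 39.995 times (30.7 to 53.1) and malignant 43.1 times (32.5 to 58.5), the smallest malignant ratio of the 11.

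Adamts7, a secreted metalloprotease of the extracellular matrix (chromosome 9, 90057816 to 90102909, plus strand), was at 20.0 and 25.9 CPM in wild type, 0.168 and 0.116 CPM in premalignant cells and 0 and 0.0333 CPM in malignant cells. With 1 count in the malignant libraries together against 1830 in wild type, the ratio of 1845 has an interval from 331 to 72915. Its exons overlap those of Tbc1d2b, and reads of the overlap could have been left out or placed with either gene. The wild-type to premalignant ratio of 150 (87.7 to 283) came second after that of Steap4.

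Mmrn1 encodes multimerin 1, a large protein stored by platelets and endothelial cells that binds coagulation factor V (chromosome 6, 60874970 to 60939372, plus strand). Its level was 21.1 and 22.3 CPM in wild type, 0.524 and 0.289 CPM in premalignant cells and 0 and 0.166 CPM in malignant cells. Dnase1l3, a secreted nuclease that digests extracellular chromatin and is made by dendritic cells and macrophages (chromosome 14, 8797047 to 8827087, minus strand), was at 11.5 and 11.7 CPM in wild type, 0.374 and 0.232 CPM in premalignant cells and 0.170 and 0.0999 CPM in malignant cells. For both genes the 3 stages did not overlap and followed the order wild type, premalignant, malignant. Dnase1l3 and Steap4, with Ccl5 and Gab1, were the 4 genes with a count in every library.

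The intracellular signalling proteins were Camk1g, Gab1 and Pcp4l1. Camk1g, a kinase activated by calcium and calmodulin (chromosome 1, 195172540 to 195196491, minus strand), was at 12.9 and 14.0 CPM in wild type, 0.299 and 0.174 CPM in premalignant cells and 0 and 0.0333 CPM in malignant cells. Its wild-type level was 53.3 times the premalignant level (35.01 to 85.4), and only 1 count remained in the malignant libraries. The stages did not overlap.

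Gab1 is a docking adaptor that links growth factor and cytokine receptors to phosphatidylinositol 3-kinase and the phosphatase SHP2 (chromosome 8, 83288333 to 83404378, minus strand). It was at 12.5 and 10.8 CPM in wild type, 0.917 and 0.579 CPM in premalignant cells and 0.0189 and 0.300 CPM in malignant cells. It came closest to the upper limit of the rule, and its ratio of wild type to premalignant was the smallest of the 11, 15.1 (11.8 to 19.5). Against malignant cells the ratio was 98.2 (53.2 to 205), with the malignant libraries 1 and 9 counts.

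Pcp4l1, a small protein related to the calmodulin regulator Pcp4 (chromosome 1, 173103393 to 173126399, minus strand), was the gene closest to the lower limit in wild type. It was at 10.0 and 11.1 CPM in wild type, 0.168 and 0.0579 CPM in premalignant cells and 0 and 0.0333 CPM in malignant cells. The stages did not overlap, and the wild-type to premalignant ratio was 83.5 (46.5 to 168). Per exon length (RPKM, the CPM over the exon length in kilobases) the order in wild type was Steap4 with a mean of 38.3, Ccl5 with 24.4, Vpreb2 with 21.5 and Klra1 with 11.4, and the other 7 lay between 2.25 and 6.71 RPKM. The replicate spread of Ccl5 and Vpreb2 was larger than the gap between them. The median of the 11 was 4.68 RPKM, against 14.7 RPKM for the 8356 genes that reached 10 CPM in both wild-type libraries.

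**Figure D2:**
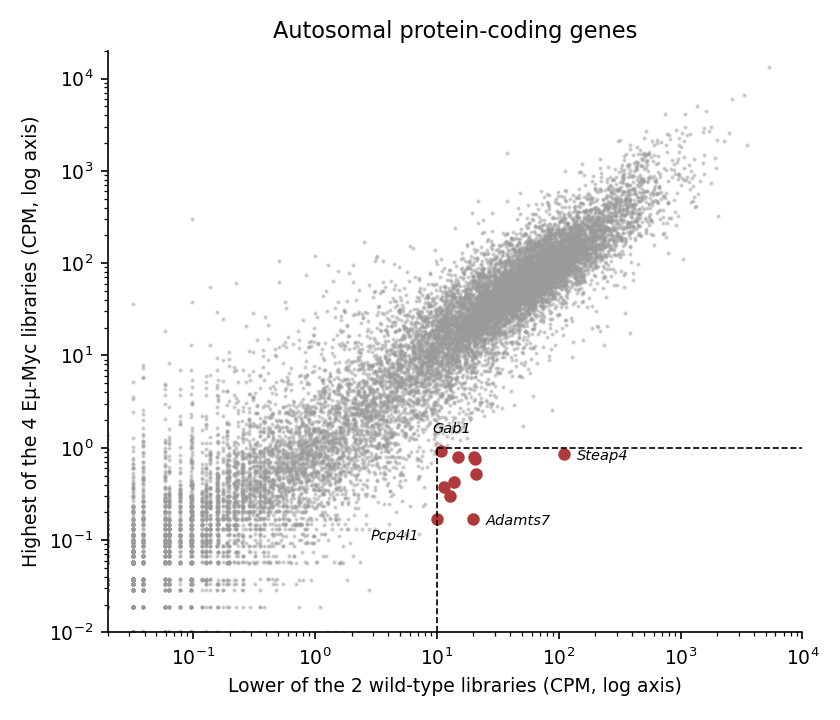
Each autosomal protein-coding gene with a count in both wild-type libraries, with its lower wild-type level on the horizontal axis and its highest level in the 4 Eμ-Myc libraries on the vertical axis, both in CPM on log axes (levels under 0.01 drawn at the edge). The dashed corner is the region of the rule, which holds the 11 genes in red, with Steap4 far to the right of the other 10.

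The limits of the rule cut through a continuous range of levels. Just inside the wild-type limit lay Pcp4l1, Gab1 and Dnase1l3, with 10.0, 10.8 and 11.5 CPM in the lower wild-type library. Just outside lay the NK receptor gene Klri2 with 9.69 CPM, Fcrl6 with 9.46 CPM and Rab6b with 9.05 CPM, all below 1 CPM in the Eμ-Myc libraries. On the other limit, Gab1, Steap4 and Klra1 reached 0.917, 0.861 and 0.804 CPM in their highest Eμ-Myc library. Oasl2, P2ry13 and Slc9a9 just failed with 1.09, 1.10 and 1.12 CPM. None of the 11 was at 0 counts in all 4 Eμ-Myc libraries, so silencing here means a level below 1 CPM. The summed level of the 11 genes was 290.4 and 300.1 CPM in wild type, 6.08 and 3.18 CPM in premalignant cells and 0.887 and 2.00 CPM in malignant cells. In sorted bulk cells, fewer cells that express a gene and less RNA of it in each cell cannot be told apart.

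All 11 genes passed the filter on low counts, Camk1g, Adamts7 and Pcp4l1 only with the wild-type libraries included, and all 11 were called lower in premalignant vs. wild-type cells by edgeR's quasi-likelihood test (a call needs an FDR by Benjamini and Hochberg no higher than 0.1 and a log2 change of 0.5 or more in size). Over all 16683 genes tested 20.3% were called lower in that comparison. In malignant vs. wild-type cells all 11 were likewise called lower, with 24.3% of all genes. The rule fixed both counts and nothing is read from them. The fitted log2 fold changes ranged from -7.14 to -3.74 in premalignant cells (median -5.31) and from -10.27 to -5.03 in malignant cells (median -7.63), and the medians of all genes were -0.08 and -0.02. Both comparisons share the wild-type libraries.

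The step from premalignant to malignant cells was not fixed by the rule, which limits both stages alike. In the fit of all 6 libraries Steap4 and Camk1g were called lower at this step. For Steap4 the log2 fold change was -2.98 with a standard error of 0.35 (edgeR's quasi-likelihood test, adjusted p = 0.0215), and for Camk1g it was -3.92 with a standard error of 0.88 (edgeR, adjusted p = 0.0822). Leaving out a library moved the value of Camk1g between -6.55 and -2.71 and that of Steap4 between -3.20 and -2.66. The wild-type libraries entered the estimate of the spread, and Camk1g passed the filter only through them. In a fit of the 2 Eμ-Myc stages alone 8 of the 11 passed the filter, none was called, 1 had an unadjusted p under 0.05, and Steap4 had an adjusted p of 0.124 (edgeR). Over all 16683 genes of the fit with wild type 2.45% were called lower, and since 3 of the 11 genes entered it through wild type, the 2 calls are not read against that share. Of the 9 not called in the fit of all 6 libraries, Adamts7, Pcp4l1, Gab1 and Mmrn1 had values of -3.20, -2.91, -2.33 and -2.50 with adjusted p from 0.127 to 0.247 in edgeR's test, and Dnase1l3, Klra1, Scn4b and Vpreb2 had -1.03, -2.59, -2.28 and -1.60 with adjusted p from 0.280 to 0.496. Ccl5 had 0.03 with a standard error of 0.51 (edgeR, adjusted p = 0.983). The estimate was negative for 10 of 11 genes, and the sign of Ccl5 turned with upper-quartile normalization, to -0.05. The median of the 11 was -2.50 and that of all genes tested 0.04. These are likewise not read against each other, since Camk1g, Adamts7 and Pcp4l1 entered through wild type, each with 1 malignant count.

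In CPM both malignant libraries lay below both premalignant libraries for 9 of the 11 genes, all but Ccl5 and Scn4b, beside 30.6% of all genes tested and 25.3% of the 3779 genes tested that were below 1 CPM in all 4 Eμ-Myc libraries. Camk1g, Adamts7 and Pcp4l1 are among these 9 and were tested only through wild type, so nothing is read from the difference in shares. The 2 malignant libraries were unlike each other. Malignant replicate 1 had 0 counts for 7 of the 11 genes, and replicate 2 was higher for 9, all but Ccl5 and Dnase1l3. Calls at this step depended on these libraries, as 9 of the 11 genes were called lower without malignant replicate 2 and 2 without malignant replicate 1. Without premalignant replicate 1 or without premalignant replicate 2, edgeR called none of the 11 and none of all genes, with 2 and 5 of the 11 at an unadjusted p under 0.05, and without either wild-type library Steap4 alone was called. For 2 libraries against 2 the smallest two-sided p of an exact permutation test is 0.333, and edgeR reaches lower values by pooling the spread over genes.

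**Figure D3:**
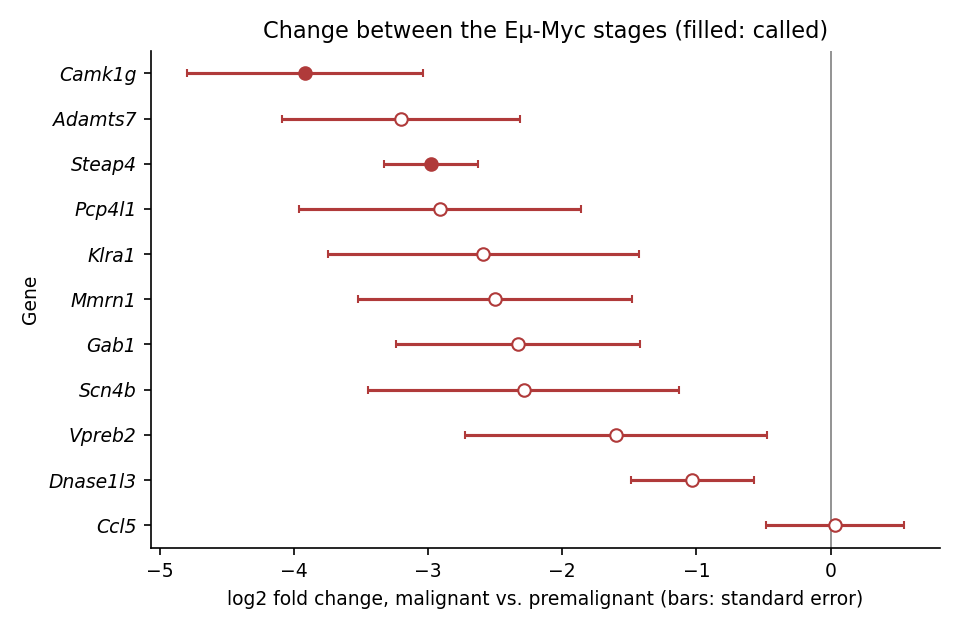
Log2 fold change in malignant vs. premalignant cells from edgeR for each of the 11 genes, with bars for the standard error and filled symbols for the called genes Steap4 and Camk1g. For 10 genes the estimate lies below 0, and that of Ccl5 lies at 0.03.

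The premalignant libraries were also ordered. Premalignant replicate 1 was above replicate 2 for 11 of 11 genes, by 1.45 to 3.47 times with a median of 1.72, and it was the highest Eμ-Myc library for each of them. Over all autosomal protein-coding genes that differed between these libraries 50.3% were higher in replicate 1, and over the genes with counts that were below 1 CPM in all 4 Eμ-Myc libraries 48.6% were. Dntt, the terminal transferase of pro-B cells, was at 295 and 249 CPM in wild type, 20.9 and 10.4 CPM in premalignant cells and 0.0943 and 6.23 CPM in malignant cells. Siglech, a lectin of plasmacytoid dendritic cells, was at 228 and 156 CPM, then 38.3 and 18.8 CPM, then 1.51 and 20.3 CPM. In both, as in most of the 11 genes, premalignant replicate 1 exceeded replicate 2 and malignant replicate 1 was the lowest library. Both are examples from the marker lists, which were mixed in the order of the premalignant libraries. NK genes summed to 18.0 and 5.18 CPM there and plasmacytoid dendritic cell genes to 243 and 159 CPM. Erythroid genes went the other way, with 103 and 210.1 CPM. Neutrophil genes (388 and 388 CPM) and pre-B and pro-B genes (5199 and 5092 CPM) were near level.

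Markers of NK cells moved with the contrast that chose the 11 genes. Ccl5 is in that list, and the 11 other listed NK genes were all called lower in both Eμ-Myc stages, and their summed level with Ccl5 was 416 and 138 CPM in wild type, 18.0 and 5.18 CPM in premalignant cells and 4.70 and 7.13 CPM in malignant cells. Gzma, a granule protease of NK cells, was at 103 and 23.2 CPM in wild type, and Nkg7, a granule membrane protein, was at 35.8 and 13.5 CPM. None of the 12 NK genes was at 0 in any library. The 12 plasmacytoid dendritic cell genes summed to 900.3 and 664 CPM in wild type, 243 and 159 CPM in premalignant and 89.2 and 205 CPM in malignant cells, with 10 called lower in premalignant cells and 12 in malignant cells, and Cd209d at 0 in malignant replicate 2. Neutrophil genes summed to 1372 and 3399 CPM in wild type, 388 and 388 CPM in premalignant and 88.4 and 146 CPM in malignant cells, with 15 of 16 called lower in premalignant cells. Erythroid genes summed to 495 and 1898 CPM, then 103 and 210.1 CPM, then 66.8 and 84.4 CPM, with 9 of 11 called lower in premalignant cells. The same call was made for 11 of 16 monocyte and macrophage genes, which summed to 769 and 664 CPM in wild type and 28.1 to 142 CPM in the Eμ-Myc libraries, for 8 of 12 T cell genes, at 177 and 122.6 CPM and 13.3 to 74.9 CPM, and for 5 of 6 tested classical dendritic cell genes, at 115 and 74.5 CPM and 9.67 to 18.99 CPM. The part of these cells in the levels of the 11 genes was not tested. Of 15 pre-B and pro-B genes 13 were called lower at each stage, with summed levels from 11845 and 12660 CPM in wild type to between 4354 and 5199 CPM in the Eμ-Myc libraries. The 18 immature and mature B cell genes were mixed. In premalignant cells 10 were called lower and 3 higher, and in malignant cells 9 lower and 5 higher. Beside all these counts, 20.3% of all genes tested were called lower in premalignant and 24.3% in malignant vs. wild-type cells.

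The 2 wild-type libraries differed more in the NK markers than in most of the 11 genes. The rule itself limits this difference for the 11 genes, since it requires at least 10 CPM in both wild-type libraries. Klra4, Klra7 and Klra8 failed it only through wild type replicate 2, with 8.25, 7.16 and 5.24 CPM. On the log2 scale the 11 NK genes other than Ccl5 were higher in wild type replicate 1 by 1.21 to 2.41 (median 1.59), whereas the 11 genes differed by a median of -0.08, and 9 of them lay between -0.46 and 0.48, the range that holds 90% of the 8356 genes at 10 CPM or more. Ccl5 lay outside with 1.08, below the lowest of these NK genes, and Vpreb2 on the other side, with -0.47. The ranges of the T cell, the monocyte and macrophage and the classical dendritic cell genes all held the value of Ccl5. Klra1 was at 0.981 times its replicate 2 level in replicate 1, while the 10 other Klra genes with at least 1 CPM had a median log2 difference of 1.69 (-0.94 to 2.14). Erythroid and neutrophil genes went the other way, with medians of -1.59 and -1.30. The widest difference of all lists was that of immediate-early genes such as Fos and Egr1, with a median of -3.13 (-10.3 to -0.60). These summed to 855 and 4718 CPM in wild type. Other lists overlapped the 11 genes, among them the pre-B and pro-B genes with a median of -0.04 (-0.56 to 0.89), the monocyte and macrophage genes with -0.13 (-1.42 to 1.21), the eosinophil genes with 0.07 (-0.33 to 0.18), the classical dendritic cell genes with 0.56 (-0.64 to 1.21) and the plasmacytoid dendritic cell genes with 0.55 (0.04 to 1.03). So did the T cell genes with 0.69 (-0.46 to 1.48) and the plasma cell genes with 0.15 (-0.65 to 0.35). The immature and mature B cell genes had -0.40 (-1.86 to 0.46). These are differences between single libraries and carry no test.

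**Figure D4:**
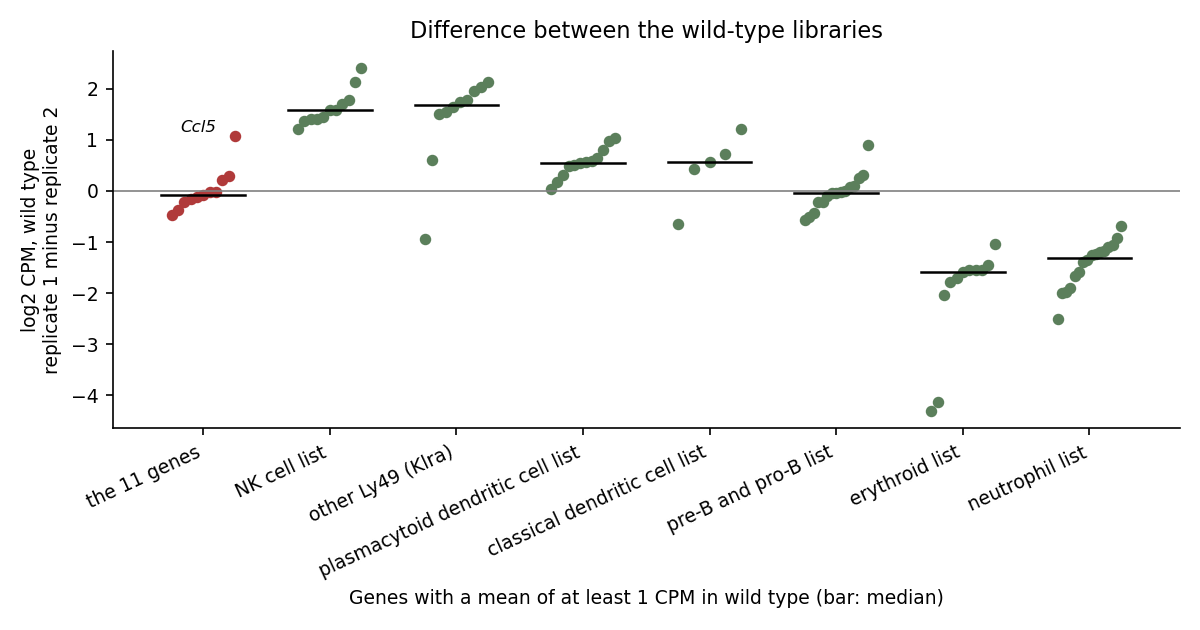
Difference in log2 CPM between wild type replicate 1 and replicate 2 for the 11 genes, marker lists and the other Ly49 genes, where points are genes whose wild-type mean reached 1 CPM and bars are medians. Ccl5 at 1.08 lies below the NK genes, which start at 1.21, while the other 10 genes lie between -0.47 and 0.30, a range that also holds the median of the pre-B and pro-B genes and the lowest of the plasmacytoid dendritic cell genes.

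Relatives of the 11 genes were read from the same fits, in families chosen once the 11 genes were known. The rule did not use their levels, but the relatives were named after their values were seen. Their adjusted p-values come from the same libraries and are no independent support for the 11 genes. The surrogate light chain genes fell together. Igll1 was at 220.01 and 219.9 CPM in wild type, 18.4 and 9.21 CPM in premalignant cells and 0.151 and 7.03 CPM in malignant cells, and its log2 fold change in premalignant cells was -3.78 with a standard error of 1.1996 (edgeR, adjusted p = 0.0569). Vpreb1, the close copy of Vpreb2, was at 128 and 148 CPM, then 9.56 and 4.69 CPM, then 0.132 and 3.76 CPM, with a change of -4.06 in premalignant cells (standard error 1.08, edgeR, adjusted p = 0.0336). The same library, malignant replicate 1, was lowest for Vpreb1, Igll1 and Vpreb2. Of the 50-base exon stretches of Vpreb2, 34.9% were repeated elsewhere in the genome, and whether Vpreb1 holds them was not tested. Reads of these copies could thus be split between them. Vpreb3, which stays in the cell and binds newly made immunoglobulin chains, kept a higher level, with 569 and 569.8 CPM in wild type and 226 and 228 CPM in premalignant cells, a change of -1.12 (standard error 0.16, edgeR, adjusted p = 0.00522).

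The Gab adaptors also fell together. Gab2, an adaptor of immune receptor signalling, was at 29.6 and 31.0 CPM in wild type, 3.74 and 2.29 CPM in premalignant cells and 0.509 and 1.23 CPM in malignant cells, with a log2 fold change of -3.12 in premalignant cells (standard error 0.45, edgeR, adjusted p = 0.00583). Gab3 changed by -2.38 (standard error 0.35, edgeR, adjusted p = 0.00604). Of the 3 tested relatives of Camk1g, Camk1d changed by -0.90 and Pnck by -2.77 in premalignant cells (edgeR, adjusted p = 0.00988 and 0.0624), and Camk1 was not called. Camk1d thus kept 30.6 and 32.3 CPM in premalignant cells where Camk1g had less than 1.

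Steap3 moved against Steap4. Steap3, the metalloreductase of iron uptake in erythroid precursors, was at 19.3 and 16.7 CPM in wild type, 43.0 and 44.1 CPM in premalignant cells and 64.2 and 77.4 CPM in malignant cells. Every stage lay above the one before, and the log2 fold changes were 1.48 in premalignant vs. wild type, with a standard error of 0.16 (edgeR, adjusted p = 0.00280), and 0.78 in malignant vs. premalignant, with a standard error of 0.16 (edgeR, adjusted p = 0.0658). Steap1 and Steap2 stayed below 0.34 CPM in all libraries. Per exon length the mean of Steap4 in wild type, 38.3 RPKM, was above that of Steap3, 3.15 RPKM, and in malignant cells Steap3 had 12.4 RPKM and Steap4 0.0279 RPKM.

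The other families were mixed. Of 10 tested relatives of Klra1, 9 were called lower in premalignant and 10 in malignant cells, and reads of the similar Ly49 genes could be split between them. Adamts14 fell in premalignant cells by 1.02 on the log2 scale (edgeR, adjusted p = 0.0389) and rose in malignant cells, to 44.7 and 33.8 CPM from 17.8 and 12.02 CPM in wild type, while 5 of the 6 tested relatives of Adamts7 were not called in premalignant cells. Among the nucleases Dnase1 was at 11.5 and 14.6 CPM in wild type and at 10.1 and 19.6 CPM in malignant cells and was not called, and Dnase1l1 was called lower. Of 5 tested chemokines besides Ccl5, Ccl3, Ccl4 and Ccl6 were called lower in premalignant cells, and Ccl9, a neighbour of Ccl5, was called higher in malignant cells. Scn2b, the tested relative of Scn4b, was called lower in malignant vs. wild-type cells, with -3.17 (edgeR, adjusted p = 0.0261), and it was not called in premalignant vs. wild-type cells, with -1.51, or between the Eμ-Myc stages. Mmrn2 and Pcp4 were too low to be tested.

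Most tested neighbours of the 11 genes were not called in premalignant vs. wild-type cells. Of the 22 protein-coding genes that flank them, 16 could be tested, and Lamb3, Gm11435, Klra3 and Sri were among those called lower in premalignant cells. Over the 90 genes within 200 kb, 25 of 74 tested were called lower and 9 higher, a share of 33.8% lower beside 20.3% for all genes, and the Ly49 cluster around Klra1 and the chemokine cluster around Ccl5 are part of these 90. In malignant vs. wild-type cells 28 of the 74 were called lower and 14 higher. Smarca5, 24937 bp from Gab1, was at 272 and 194 CPM in wild type and 267 and 263 CPM in premalignant cells. Morf4l1, 48158 bp from Adamts7, was at 370.5 and 313 CPM in wild type and 362 and 392 CPM in premalignant cells. Sri, 63865 bp from Steap4, was at 146 and 139 CPM in wild type and 65.5 and 68.1 CPM in premalignant cells, a change of -0.88 (edgeR, adjusted p = 0.00534) where Steap4 had -7.14.

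The levels of the 2 Eμ-Myc stages can be set beside each other by applying the rule to 1 stage. In premalignant cells alone 14 genes qualified, and 11 of them (78.6%) were also below 1 CPM in both malignant libraries. In malignant cells alone 67 genes qualified, and 11 of them (16.4%) were also below 1 CPM in both premalignant libraries. The 3 genes below 1 CPM only in the premalignant libraries were 2010300C02Rik, Serpina3g and the light chain gene Iglc2, with at most 1.87 CPM as a mean in malignant cells. The 67 genes had a median of 1.72 CPM as a premalignant mean, and the highest was 8.55 CPM.

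The rule can also be applied to the libraries of 1 replicate number and the genes described in the others. Chosen on replicate 1, 28 genes qualified, and all 28 were below 1 CPM in both Eμ-Myc libraries of replicate 2, but only 11 reached 10 CPM in wild type replicate 2. The medians in the replicate 2 libraries were 7.70 CPM in wild type, 0.232 CPM in premalignant and 0.133 CPM in malignant cells. Among the 17 genes that failed in wild type replicate 2 were the NK genes Gzmb, Klrc1, Klrc2, Klre1 and Tbx21. They also included the dendritic cell genes Clec9a and Cd209a, and Gm10800 and Gm10801, which were at 0 CPM there. Chosen on replicate 2, 41 genes qualified, of which 29 reached 10 CPM in wild type replicate 1, 24 were below 1 CPM in premalignant replicate 1 and 37 in malignant replicate 1. There the medians were 15.1 CPM in wild type, 0.804 CPM in premalignant and 0.151 CPM in malignant cells. Hspa1a, Rasd1, Rgs1 and Hist1h2bg were among the genes that failed in wild type replicate 1. The NK genes Nkg7, Klrd1 and Klrk1 were among those that failed in premalignant replicate 1.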

How the data were processed

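Strand-unaware libraries of polyadenylated RNA (TruSeq v2) were sequenced as single 50-base reads. Base calls came from CASAVA 1.8.2 per the labels, and the authors aligned the reads to mm9 with TopHat and counted them per Ensembl gene with HTSeq, whose options are not given in the sources used here. The deposited values are raw counts without normalization. The authors' DEseq tables hold means, fold changes and p-values of their own comparisons and were not used. The members of the gene set and the lists, families and motifs were chosen with earlier results of these data known.

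CPM was computed over all counts on genes, and RPKM from exon lengths of GENCODE vM1 on NCBIM37, where 37205 identifiers had a symbol and 786 had none. The fits used edgeR 4.0.16 in R 4.3.3 with the quasi-likelihood test, TMM normalization, the default filter on low counts and all 6 libraries, and standard errors were taken from the fold change and its F statistic. The FDR and fold thresholds are those of the study's methods. No spike-in was analysed, so TMM would not show a change in total RNA per cell. Count ratios carry Clopper-Pearson 95% intervals, computed with scipy 1.17.1. Every member was to be named with its values in every library, as were the genes just outside the thresholds, and other genes come from lists, from families and from the flanking genes, the last 2 named after their values were seen. Stage and replicate came from the labels. Replicates were separate animals in the study's account, and p-values measure the spread between these samples. Repeats of 50-base exon stretches were searched on both strands of NCBIM37. The fits were tested on simulated data, where false calls were more frequent than the FDR limit allows, in DESeq2 more than in edgeR. In malignant vs. premalignant cells 24 of 149 calls were false in edgeR and 115 of 258 in DESeq2. In malignant vs. wild-type cells 24 of 150 and 92 of 238 were false. The alternatives were DESeq2 1.42.0, upper-quartile normalization, other filters on low counts, a block by replicate number, fits restricted to 2 stages, other limits of the rule and leaving out each library in turn.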

Additional observations from a re-analysis of the deposited data

How the results depend on the processing

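The set of 11 genes depended on the limits. It grew to 52 genes at 5 CPM in wild type and to 42 genes below 2 CPM in the Eμ-Myc libraries, each including all 11, and shrank to 4 at 20 CPM, to 5 below 0.5 CPM and to 4 with RPKM in place of CPM. Leaving out a library gave between 11 and 28 genes, with 21 and 28 without wild type replicate 1 and 2 and 26 without premalignant replicate 1. CPM from TMM-normalized library sizes gave 9 of the 11.

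Members called lower in malignant vs. premalignant cells numbered 2, then 5 with DESeq2, 9 with no filter on low counts, and 0 with at least 10 counts in every library, where edgeR tested 1 of the 11 and it had no unadjusted p under 0.05. Fitting only the stages compared gave 0 of 8 tested, with 1 at an unadjusted p under 0.05. Leaving out a library gave 0 to 9, and over all genes 0 to 3805 calls against 1031. Over all genes the calls were 2169 with DESeq2, 2810 with no filter and 258 with only the stages compared. Upper-quartile normalization gave 487 higher and 492 lower against 623 and 408, and it shifted the malignant vs. wild-type median by -0.17 per gene. The cause was not tested. For premalignant vs. wild type, leaving out a library gave 2094 to 8455 calls against 6563. For malignant vs. wild type all 12 alternatives stayed within 1.5 times of 8212.

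With the replicate number as a block, 1 member, Steap4, was called in malignant vs. premalignant cells, Camk1g had an adjusted p of 0.106 in edgeR, and the calls over all genes were 940, 6575 and 8224 in the 3 comparisons. The labels name no shared litter or day, the deviations of same-numbered libraries had correlations over genes of 0.385 (wild type with premalignant), 0.0197 (wild type with malignant) and 0.0854 (premalignant with malignant), and the pairing was not used. The alternative with genes chosen on replicate number 2 gave 26.8% meeting the whole rule in the other libraries, against 39.3% on replicate number 1.

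Counts under 10 per library set the precision of most malignant values.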

Other observations

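2 further genes met both limits and were left aside by their annotated type. Iglv2, a variable gene of the lambda light chain on chromosome 16, was at 28.8 and 34.3 CPM in wild type, 0.0374 and 0.116 CPM in premalignant cells and 0.151 and 0.0999 CPM in malignant cells. The long noncoding RNA gene 2610307P16Rik on chromosome 13 was at 13.1 and 23.0 CPM in wild type, 0.281 and 0.289 CPM in premalignant cells and 0 and 0.0999 CPM in malignant cells. For Iglv2 the premalignant libraries were not above the malignant libraries, unlike in most of the 11 protein-coding genes, whereas for 2610307P16Rik they were.

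Erg, a transcription factor of early haematopoietic and B-lineage cells, was at 61.7 and 68.9 CPM in wild type, 3.63 and 2.52 CPM in premalignant cells and 0.0377 and 1.798 CPM in malignant cells. It was called lower in premalignant vs. wild-type cells with a log2 fold change of -4.19 and a standard error of 1.06 (edgeR's quasi-likelihood test, adjusted p = 0.0295) and in malignant vs. wild-type cells with -6.00 and a standard error of 1.19 (edgeR, adjusted p = 0.00948). Its wild-type libraries differed little and its lowest library was malignant replicate 1, as for 9 of the 11 genes.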
